A study of Homo sapiens with 18 samples.

Results

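The comparison described here set cells labelled as transiently overexpressing Flag-ZMYND8 and then treated with doxorubicin against control cells, all of the breast adenocarcinoma line MDA-MB-231. It was made of the 2 libraries labelled Flag-ZMYND8 transient overexpression plus doxorubicin (called labelled ZMYND8 + doxorubicin below) and the 2 control libraries, chosen by their sample titles, which are 4 of the 18 samples of the series. Per the labels, the transfected cells received FLAG ZMYND8 or an empty vector and, 24 h later, 0.6 µM doxorubicin or vehicle for 48 h. The control samples themselves are labelled only as untreated, and no label says whether each of them received the empty vector. Another pair of libraries of the same system, control plus doxorubicin, was given the drug in the same way and served as the drug-matched comparison, with a limit given below. The remaining 12 libraries came from cells with doxycycline-inducible ZMYND8 or GFP (lentiviral pInducer20 under G418, 250 ng/mL doxycycline), of which the untreated and 48 h doxorubicin groups are used. Both systems used 1 cell line, which keeps its own ZMYND8 gene. The transient construct was a pCMV-FLAG vector per the methods of the study, which has a viral CMV promoter, and the transfected cells were a population and not a clone. Replicates are labelled as biological, with 2 per condition.

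Doxorubicin is an anthracycline that intercalates in DNA and traps topoisomerase II on broken strands, so that treated cells mount a DNA damage response. That response acts through the checkpoint kinases, and damaged or mislocalised nucleic acids can also switch on interferon-stimulated genes. ZMYND8 is a chromatin reader with a PHD finger, a bromodomain and a PWWP domain, which works with histone demethylases of the KDM5 family and other repressors at enhancers and promoters. MDA-MB-231 is a triple-negative, mesenchymal-like line. The question put to these libraries was how transcription in drug-treated cells labelled as overexpressing ZMYND8 differed from that of control cells.

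Depth was 5858550 and 5904185 counts in the control libraries and 5972396 and 5740091 in labelled ZMYND8 + doxorubicin. Doxorubicin alone had 5729294 and 24713822 counts, and the inducible libraries 18300628 to 23724398. All 10 markers listed for MDA-MB-231 were measured in the 4 libraries, with a summed level of 14603 and 11827 CPM (counts per 1000000 counts of the library, TMM-normalized) in control and 9813 and 7591 CPM in labelled ZMYND8 + doxorubicin, and 3 of them (CAV1, CAV2 and KRT18) were lower in the treated cells. Luminal markers summed to 320 to 454 CPM with FOXA1 at 0, fibroblast markers to 47.8 to 110 CPM, endothelial markers to 11.3 to 13.2 CPM and leukocyte markers to 3.63 to 7.22 CPM with MS4A1 and NKG7 at 0. The part of such other markers in the results was not tested.

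ZMYND8 itself (ENSG00000101040, chr20:47209214-47356889 of hg38, minus strand) was not raised in the libraries that carry its label. It stood at 219 and 199 CPM in control, at 159.8 and 125 CPM in labelled ZMYND8 + doxorubicin and at 182 and 123 CPM in doxorubicin alone. Both labelled libraries thus lay below both control libraries and overlapped those of doxorubicin alone. The log2 fold change against control was -0.55 ± 0.24 (2 libraries each, SE from the fit of all 6 transient libraries), which did not pass the test (edgeR adjusted p = 0.178). In the inducible system the gene stood at 209 and 208 CPM in GFP cells, at 139 and 141 CPM in GFP cells with 48 h doxorubicin, and at 1001 and 924 CPM in ZMYND8 cells with 48 h doxorubicin. The effect on ZMYND8 in the transient system was 2.80 lower on the log2 scale than in the inducible one (-2.80 ± 0.20, SE; joint edgeR fit, adjusted p = 2.75e-08). That fit pools the spread of both systems, so its SE is below the 0.24 of the transient effect alone and is too small. With each system fitted on its own the difference was -2.76 (t-test on both SEs, adjusted p = 6.69e-05). Every direction below is that of the libraries labelled ZMYND8 plus doxorubicin, in which ZMYND8 RNA was not above control.

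**Figure D1:**
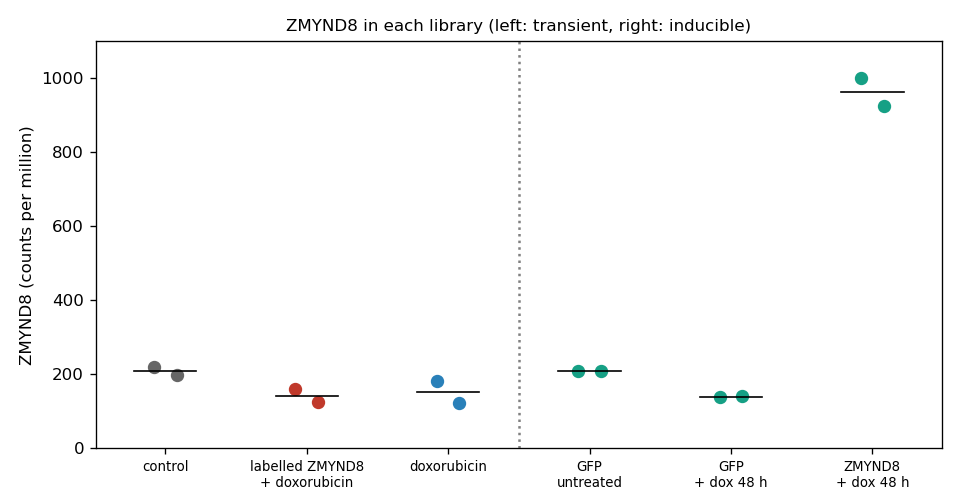
ZMYND8 in CPM (vertical axis, linear from 0) in each library of 6 groups, transient on the left and inducible on the right of the dotted line; points are libraries and bars the mean of 2. The labelled ZMYND8 + doxorubicin libraries sit at 159.8 and 125 CPM, below both controls, while the inducible ZMYND8 + doxorubicin libraries sit at 1001 and 924 CPM.

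A second departure from the labels concerned replicate 2. The counts of labelled ZMYND8 + doxorubicin 2 and of doxorubicin alone 2, compared over 17816 genes, gave a chi-square per degree of freedom of 1.39, where 1 is counting noise. The other 14 pairs of transient libraries gave 9.71 to 55.6, including 22.7 between both controls and 10.7 between both labelled ZMYND8 + doxorubicin libraries. Of the genes compared, 93.7% lay within counting error (a z of 2) once the 4.31 times greater depth of the doxorubicin library was allowed for. The 45 genes with a z beyond 4 included CD99 (526 against 51 counts), PRPF8 (239 against 60), FRG1 (3 against 263) and GSDMD (3 against 235). These libraries are labelled as different conditions and were kept as such. The counts below are given with and without them where they matter.

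**Figure D2:**
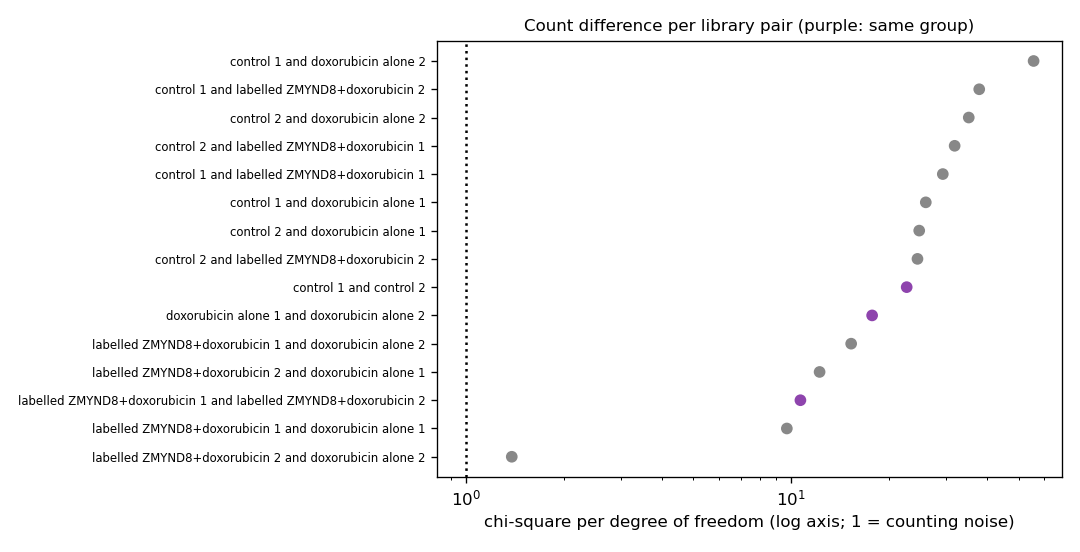
Chi-square per degree of freedom of the counts of each pair of transient libraries (horizontal log axis, 1 = counting noise); each point is 1 of 15 pairs and purple marks pairs of the same group. Labelled ZMYND8 + doxorubicin 2 and doxorubicin alone 2 sit at 1.39, apart from the other 14 pairs at 9.71 to 55.6.

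Against control, 1071 of 15697 genes tested (6.82%) passed an adjusted p of 0.05 in edgeR's quasi-likelihood test, 605 higher (3.85%) and 466 lower (2.97%). Their median log2 fold changes were 1.32 and -1.20, the median of all genes tested was 0.003, and 821 changed by at least 1 on the log2 scale. The study's own criterion, a log2 fold change reaching 1 and an unadjusted p of at most 0.05, called 1544 genes (9.84%). For the gene lists below, the shares to set beside called members are the 3.85% higher and 2.97% lower of all genes tested. The libraries of both groups did not overlap in 605 of the 605 and 466 of the 466 calls, set beside 27% (higher) and 25% (lower) of all genes tested. Where groups do not overlap, the sign is nearly fixed when 1 library is left out, so the kept signs given below add no support. The calls rested on both labelled libraries. There were 152 calls without labelled ZMYND8 + doxorubicin 1, 301 without labelled ZMYND8 + doxorubicin 2, 732 without control 1 and 788 without control 2, and the sign of all 1071 genes was the same in these 4 fits. With both near-identical libraries left out 605 genes were called, 491 of them among the 1071. In the transient tables, annotated genes lying on the opposite strand of an expressed gene had 1.71 to 1.95 times its count density (204 such pairs), compared with 0.085 to 0.112 in the inducible tables (297 pairs). A gene and its antisense partner could therefore not be told apart in the transient system. Of the 1071 calls, 183 (17.1%) had over 10% of their exon bases in such an overlap, compared with 22.9% of the genes tested.

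Sequences upstream of the members that moved together are shown first, because 3 of the gene groups below are known targets of the E2F factors, of the interferon-activated complex ISGF3 and of the hypoxia-inducible factor HIF. The windows run from 250 bases before to 50 after the annotated start (RefSeq, GRCh38.p14). Capitals mark the motif searched on either strand. For each list the 2 called members with the largest change whose promoter held the motif are printed (average log2 CPM at least 1). These windows were thus picked for holding it.

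E2F2, chr1:23531184-23531483, minus strand: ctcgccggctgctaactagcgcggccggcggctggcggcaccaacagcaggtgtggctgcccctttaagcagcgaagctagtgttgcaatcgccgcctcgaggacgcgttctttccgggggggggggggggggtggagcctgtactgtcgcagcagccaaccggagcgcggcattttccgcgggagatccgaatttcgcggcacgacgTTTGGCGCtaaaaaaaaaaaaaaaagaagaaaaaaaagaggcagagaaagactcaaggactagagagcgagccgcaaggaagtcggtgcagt
CLSPN, chr1:35769929-35770228, minus strand: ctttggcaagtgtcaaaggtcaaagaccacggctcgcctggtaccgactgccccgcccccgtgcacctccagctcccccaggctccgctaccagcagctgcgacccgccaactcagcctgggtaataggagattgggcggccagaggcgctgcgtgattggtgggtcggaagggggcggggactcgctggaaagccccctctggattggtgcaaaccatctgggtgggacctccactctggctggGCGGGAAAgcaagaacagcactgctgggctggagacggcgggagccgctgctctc
ISG20, chr15:88638766-88639065, plus strand: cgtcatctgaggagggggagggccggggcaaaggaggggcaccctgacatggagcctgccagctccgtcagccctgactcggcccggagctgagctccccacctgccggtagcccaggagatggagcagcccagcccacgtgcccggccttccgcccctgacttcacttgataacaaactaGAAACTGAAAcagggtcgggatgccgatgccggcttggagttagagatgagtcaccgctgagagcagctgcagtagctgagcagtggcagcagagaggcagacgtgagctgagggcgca
IFI44L, chr1:78620198-78620497, plus strand: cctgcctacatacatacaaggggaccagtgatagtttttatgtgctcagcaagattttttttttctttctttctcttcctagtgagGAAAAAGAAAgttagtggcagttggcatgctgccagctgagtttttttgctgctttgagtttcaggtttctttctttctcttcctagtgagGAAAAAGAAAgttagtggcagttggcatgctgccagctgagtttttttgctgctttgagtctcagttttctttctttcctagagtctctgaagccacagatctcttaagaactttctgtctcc
CA9, chr9:35673678-35673977, plus strand: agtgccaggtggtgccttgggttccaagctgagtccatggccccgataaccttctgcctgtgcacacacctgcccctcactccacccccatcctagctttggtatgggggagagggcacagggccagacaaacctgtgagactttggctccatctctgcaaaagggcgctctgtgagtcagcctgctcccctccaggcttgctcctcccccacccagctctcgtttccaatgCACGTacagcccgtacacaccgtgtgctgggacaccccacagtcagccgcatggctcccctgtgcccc
ALDOC, chr17:28576846-28577145, minus strand: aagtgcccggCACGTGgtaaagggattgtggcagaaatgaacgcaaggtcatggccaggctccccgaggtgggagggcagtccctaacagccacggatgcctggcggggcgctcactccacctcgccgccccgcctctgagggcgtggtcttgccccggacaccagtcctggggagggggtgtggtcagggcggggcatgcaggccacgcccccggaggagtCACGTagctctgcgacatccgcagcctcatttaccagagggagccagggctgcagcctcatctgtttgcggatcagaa

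An E2F motif (TTTCCCGC, TTTCGCGC, TTTGCCGC or TTTGGCGC, either strand) was found in 24 of the 47 promoters matched for the DNA replication list (51.1%) and in 3.31% of 35116 promoters. The interferon-stimulated response element (TTTC, then any 2 bases, then TTTC, either strand) was found in 30 of 42 matched promoters of the interferon list (71.4%) and in 3.57% of all promoters. The core of the HIF element (ACGTG, either strand, so that CACGTG is matched on both) was found in 13 of 29 matched promoters of the hypoxia list (44.8%) and in 21.4% of all. Among called members with a matched promoter, each list's own motif was in 20 of 40, 12 of 15 and 6 of 10, in that order. These lists hold genes chosen as known targets, so the shares describe the lists and were not tested.

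Genes of DNA replication were the list with the largest share of members that rose. Of 57 genes of the list, 48 were higher and 0 lower in labelled ZMYND8 + doxorubicin, all 57 had a positive log2 fold change and the median was 1.32, compared with 0.003 over all genes tested. With both near-identical libraries left out 34 were called, and 25 and 26 were called without either labelled library. E2F2 (chr1:23506438-23531233, minus strand), a transcription factor that drives entry into S phase, stood at 3.05 and 3.65 CPM in control and at 26.2 and 28.4 CPM in labelled ZMYND8 + doxorubicin. Its log2 fold change was 3.02 ± 0.27 (SE; edgeR adjusted p = 0.00393), the largest of the list. CLSPN, the adaptor that lets ATR activate CHEK1 at stalled forks, went from 28.6 and 43.3 CPM to 124 and 174 CPM, a log2 fold change of 2.05 ± 0.27 (edgeR adjusted p = 0.00482). RRM2, the small subunit of ribonucleotide reductase, went from 71.4 and 84 CPM to 273 and 365 CPM, a log2 fold change of 2.04 ± 0.23 (edgeR adjusted p = 0.00393). In each of these genes the groups were well separated, and doxorubicin alone, at 28.8 and 29.9 CPM for E2F2, 127 and 173 CPM for CLSPN and 308 and 367 CPM for RRM2, lay with the labelled libraries. The 9 members that did not pass included MCM5 and MCM6, subunits of the replicative helicase, at log2 fold changes of 0.28 and 0.09.

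Genes of homologous recombination, the Fanconi pathway and the checkpoint moved the same way in smaller number, with 16 of 41 higher, 0 lower and a median log2 fold change of 0.86. BRCA1, which directs broken ends to homologous repair, stood at 20.8 and 23.8 CPM in control and 84.4 and 99.3 CPM in labelled ZMYND8 + doxorubicin (log2 fold change 2.04 ± 0.21, edgeR adjusted p = 0.00393). EXO1, a nuclease that resects broken ends, stood at 12.2 and 13.6 CPM and at 52.8 and 52 CPM (2.02 ± 0.22, edgeR adjusted p = 0.00393). XRCC2, a homologous recombination factor, stood at 8.01 and 15.5 CPM and at 30.8 and 51.2 CPM (1.80 ± 0.33, edgeR adjusted p = 0.0132). The rise in all 3 was larger than the gap between replicates. Leaving out labelled ZMYND8 + doxorubicin 1 or 2 gave 7 calls each, and leaving out both near-identical libraries gave 9.

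Of 53 mitotic genes 14 were higher and 0 lower, with a median log2 fold change of 0.57. NCAPH, a condensin subunit, was at 44.8 and 49.8 CPM in control and at 135 and 120.1 CPM in labelled ZMYND8 + doxorubicin (log2 fold change 1.43 ± 0.19, edgeR adjusted p = 0.00498). ESPL1, the protease separase that releases sister chromatids, was at 38.9 and 44 CPM and at 103 and 106 CPM (1.33 ± 0.20, edgeR adjusted p = 0.00656). AURKB, the catalytic subunit of the chromosomal passenger complex, was at 78.4 and 63 CPM and at 169 and 157 CPM (1.21 ± 0.20, edgeR adjusted p = 0.00893). These counts were sensitive to the libraries used, with 2 and 4 called without either labelled library and 6 without control 1. TOP2A, the topoisomerase that doxorubicin poisons, was at 342 and 359 CPM and at 685 and 814 CPM (1.10 ± 0.21, edgeR adjusted p = 0.0141). Of the 12 replication-dependent histone genes that could be tested, 3 were higher (25%, compared with 3.85% of all genes tested) and 0 lower. These calls were lost without either labelled library. These mRNAs lack a poly(A) tail in cycling cells and oligo-dT libraries capture few of them.

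CDKN1A, the cyclin-dependent kinase inhibitor p21, was at 73.8 and 45.1 CPM in control and at 283 and 259 CPM in labelled ZMYND8 + doxorubicin (log2 fold change 2.19 ± 0.25, edgeR adjusted p = 0.00393). FAS, a death receptor, was at 5.91 and 4.87 CPM and at 24.9 and 21 CPM (2.09 ± 0.29, edgeR adjusted p = 0.00543), with 18.7% of its exon bases overlapping antisense exons. CCNG1 went the other way, from 128 and 132 CPM to 73 and 79.1 CPM (-0.77 ± 0.20, edgeR adjusted p = 0.0414). No member of the BCL2 family passed the test in edgeR (0 of 14, median log2 fold change -0.11, smallest adjusted p 0.0602), 4 had an unadjusted p of at most 0.05 in edgeR, and DESeq2 called 2, both lower. Of the cyclin-dependent kinase inhibitors named here, CDKN1A rose while CDKN1C (p57) fell, from 27.1 and 8.35 CPM to 2.71 and 0.985 CPM (-3.25 ± 0.60, edgeR adjusted p = 0.0131).

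Interferon-stimulated genes rose as well, with 18 of 50 higher, 0 lower and a median log2 fold change of 0.79. RSAD2 (chr2:6865806-6898239, plus strand), which encodes the antiviral protein viperin, was at 0.763 and 1.04 CPM in control and at 12.2 and 12.8 CPM in labelled ZMYND8 + doxorubicin (log2 fold change 3.76 ± 0.87, edgeR adjusted p = 0.0285). ISG20, an RNA exonuclease, was at 9.54 and 3.65 CPM and at 68.7 and 35.6 CPM (2.99 ± 0.52, edgeR adjusted p = 0.0105). IFI44L was at 2.1 and 1.04 CPM and at 13.7 and 8.04 CPM (2.79 ± 0.57, edgeR adjusted p = 0.0172). The groups did not overlap in any of these genes. ISG15, a ubiquitin-like modifier, was at 126 and 87.9 CPM and at 688 and 359 CPM (2.29 ± 0.45, edgeR adjusted p = 0.0154), and its labelled libraries differed from each other more than its controls did. CMPK2, a mitochondrial nucleotide kinase at 0.191 and 0.348 CPM and at 4.4 and 3.61 CPM, did not pass (edgeR adjusted p = 0.081), and IFI27 stood at -0.69 ± 0.40 (edgeR adjusted p = 0.318). Without labelled ZMYND8 + doxorubicin 1, 3 were higher and 0 lower, and without labelled ZMYND8 + doxorubicin 2, 11 were higher and 1 lower. Without either control 10 and 9 were higher and 0 lower. With both near-identical libraries left out 22 of 50 were higher and 1 lower.

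This group was among those that set the first doxorubicin library apart from the other treated ones. Relative to the mean of the controls, the list's median level was 0.89 and 0.76 on the log2 scale in labelled ZMYND8 + doxorubicin and 0.21 and 0.74 in doxorubicin alone. RSAD2 was at 1.39 CPM in doxorubicin alone 1 and at 13.7 CPM in doxorubicin alone 2. IFIT3, an interferon-induced RNA-binding protein named after its values were seen, was at 159.7 and 156 CPM in control, 697 and 692 CPM in labelled ZMYND8 + doxorubicin and 152 and 673 CPM in doxorubicin alone. Labelled ZMYND8 + doxorubicin 1 was above doxorubicin alone 1 in 44 of 50 members, with a median difference of 0.61, whereas replicate 2 was above in 19 of 50, with a median of -0.03. The replicate 2 libraries are the near-identical ones. Over all genes tested both differences had a median of -0.003 and -0.001, with 7804 and 7789 of 15697 genes above. Other lists were offset between the replicate 1 libraries too, in either direction. The median difference was -0.84 for integrated stress response genes (3 of 20 above) and -0.29 for mitochondrially encoded mRNAs (0 of 13 above). For replication-dependent histones it was 0.26 (11 of 12 above).

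Upstream of these genes, 4 of 30 nucleic acid sensors and interferon regulators were higher and 0 lower (median log2 fold change 0.44). That is 13.3% higher, compared with 3.85% of all genes tested. DHX58, the helicase LGP2, was at 18.3 and 12.4 CPM in control and at 74.7 and 44.6 CPM in labelled ZMYND8 + doxorubicin (log2 fold change 1.96 ± 0.41, edgeR adjusted p = 0.019). RIGI, the receptor for uncapped RNA, was at 66 and 83 CPM and at 231 and 185 CPM (1.48 ± 0.27, edgeR adjusted p = 0.013). IRF1, a transcription factor of the same response, was at 50.9 and 52.2 CPM and at 128 and 110.0 CPM (1.21 ± 0.23, edgeR adjusted p = 0.014), with 22.1% of its exon bases overlapping antisense exons. In antigen presentation 2 of 13 genes rose (15.4%, compared with 3.85% of all genes tested) and 0 fell. They were HLA-C at 1.06 ± 0.26 (edgeR adjusted p = 0.0363), whose reads can be shared with the other class I genes, and the proteasome activator PSME2 at 0.88 ± 0.22 (edgeR adjusted p = 0.0386). All 4 sensor and regulator calls were lost without labelled ZMYND8 + doxorubicin 1, and 3 were made without labelled ZMYND8 + doxorubicin 2. Both calls in antigen presentation were lost without either labelled library and without control 2.

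Secreted signals held the largest of the 12 rises named. Of 24 cytokine, chemokine and NF-kB feedback genes 6 were higher and 1 lower, with a median log2 fold change of 0.46. CXCL11 (chr4:76033682-76041415, minus strand), a chemokine that attracts CXCR3-bearing T cells, was at 0.382 and 0.696 CPM in control and at 10.8 and 15.3 CPM in labelled ZMYND8 + doxorubicin (log2 fold change 4.55 ± 0.74, edgeR adjusted p = 0.00849). IL11, a cytokine of the IL6 family, was at 15.1 and 7.66 CPM and at 98.8 and 41 CPM (2.63 ± 0.42, edgeR adjusted p = 0.00814). CSF2, the growth factor GM-CSF, was at 3.82 and 1.22 CPM and at 22.8 and 6.73 CPM (2.57 ± 0.61, edgeR adjusted p = 0.0311). The groups were apart in all 3, although both libraries of a group could differ severalfold, as in CSF2. CSF1, the macrophage growth factor, fell from 721 and 658 CPM to 359 and 288 CPM (-1.09 ± 0.21, edgeR adjusted p = 0.014). The list rested on single libraries, with a median of 1.19 without control 1, 0.05 without control 2, 0.18 without labelled ZMYND8 + doxorubicin 1 and 0.72 without labelled ZMYND8 + doxorubicin 2. The number higher was 7, 3, 2 and 5 in that order. As with the interferon list, labelled ZMYND8 + doxorubicin 1 was above doxorubicin alone 1 in 23 of 24 genes (median difference 0.61) and replicate 2 in 12 of 24 (0.01). CH25H, the enzyme that makes 25-hydroxycholesterol, belongs to no list here and had the next largest rise, from 1.53 and 0.87 CPM to 24.9 and 17.9 CPM (4.15 ± 0.75, edgeR adjusted p = 0.0121).

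Hypoxia and glycolysis genes were the list with the largest share of members that fell. Of 33 tested, 13 were lower and 0 higher, 32 had a negative log2 fold change and the median was -0.68. CA9 (chr9:35673918-35681159, plus strand), a carbonic anhydrase at the cell surface, was at 20.8 and 16.2 CPM in control and at 5.41 and 2.63 CPM in labelled ZMYND8 + doxorubicin (log2 fold change -2.20 ± 0.37, edgeR adjusted p = 0.0101), with 36.1% of its exon bases overlapping antisense exons. ALDOC, a glycolytic aldolase, was at 36.4 and 26.1 CPM and at 8.12 and 6.24 CPM (-2.12 ± 0.31, edgeR adjusted p = 0.00639), with an overlap of 11.3%. EGLN3, a prolyl hydroxylase that marks HIF for degradation and is itself induced by it, was at 7.06 and 7.66 CPM and at 1.52 and 2.13 CPM (-2.0 ± 0.48, edgeR adjusted p = 0.0324). In all 3 genes each treated library was below each control. Of the enzymes of the glycolytic chain itself, PGK1 fell by 1.04 (± 0.19) and ENO1 by 0.91 (± 0.21) on the log2 scale, both named after their values were seen (edgeR adjusted p = 0.0131 and 0.0285). The number called was 4 and 3 without either labelled library, 7 without control 2 and 9 with both near-identical libraries left out.

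Matrix, adhesion and mesenchymal genes fell in part. Of 40 collagen, laminin and integrin genes 8 were lower and 2 higher (median log2 fold change -0.38), and of 19 mesenchymal genes 5 were lower and 1 higher (median -0.57). ITGA10 (chr1:145891208-145910111, minus strand), a collagen-binding integrin chain, was at 28 and 36.4 CPM in control and at 3.72 and 2.3 CPM in labelled ZMYND8 + doxorubicin (log2 fold change -3.42 ± 0.47, edgeR adjusted p = 0.00501), the deepest of the 12 largest falls. COL1A2, a chain of type I collagen, was at 33.2 and 57.9 CPM and at 6.93 and 7.88 CPM (-2.62 ± 0.32, edgeR adjusted p = 0.00393). FN1, fibronectin, was at 934 and 1009 CPM and at 428 and 421 CPM (-1.19 ± 0.23, edgeR adjusted p = 0.0138). These 3 genes were separated between groups by more than their replicates differed. COL1A2 is also one of the fibroblast markers, whose summed level was 86.6 and 110 CPM in control and 71.7 and 47.8 CPM in the treated cells. TAGLN, an actin-binding protein of contractile cells, fell by 2.10 (± 0.31), LOX, which crosslinks collagen, by 1.68 (± 0.24) and TGFB2 by 1.57 (± 0.26) on the log2 scale (edgeR adjusted p = 0.00639, 0.00543 and 0.0085). In the other direction ACTA2, smooth muscle actin, rose by 1.80 ± 0.28 (edgeR adjusted p = 0.00791), with 30.1% of its exon bases overlapping antisense exons, and ITGB3 by 1.35 ± 0.35 (edgeR adjusted p = 0.0458). The span of ACTA2 (chr10:88935074-88991339) overlaps that of FAS (chr10:88990531-89017059), which also rose. The rises of ACTA2 and FAS may thus share reads, which was not tested. Of the hyaluronan and protease list 3 of 19 fell (15.8%, compared with 2.97% of all genes tested) and 0 rose. Among the 3 was HAS2, a hyaluronan synthase, from 9.92 and 8.35 CPM to 0.676 and 1.15 CPM (-3.30 ± 0.48, edgeR adjusted p = 0.00639). Without labelled ZMYND8 + doxorubicin 1 the number lower was 2 for collagens, laminins and integrins, 2 for mesenchymal genes and 0 for the hyaluronan and protease list, and without labelled ZMYND8 + doxorubicin 2 it was 2, 3 and 1.

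Epithelial genes moved both ways, with 2 of 18 higher and 2 lower. That is 11.1% each way, compared with 3.85% higher and 2.97% lower over all genes tested. Not all of these calls were kept without either labelled library. KRT17, a keratin of basal and wounded epithelium, had 0 counts in both controls and 5.41 and 4.92 CPM in labelled ZMYND8 + doxorubicin, at least 9.44-fold higher when 3 counts per control library are taken as the floor (edgeR adjusted p = 0.0108). ST14, the protease matriptase, was at 4.58 and 4.18 CPM and at 10.3 and 17.9 CPM (log2 fold change 1.69 ± 0.43, edgeR adjusted p = 0.0418). KRT7 and KRT18, keratins of simple epithelium, fell by 1.16 (± 0.27) and 0.85 (± 0.21) on the log2 scale (edgeR adjusted p = 0.0284 and 0.0354), the latter with 17.1% of exon bases overlapping antisense exons. CGN, the tight junction protein cingulin, rose from 3.63 and 1.74 CPM to 28.7 and 27.1 CPM (3.39 ± 0.37, edgeR adjusted p = 0.00393).

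The other genes of the 12 largest rises were the sodium channel SCN3A (3.21 ± 0.62), the IL22 receptor chain IL22RA1 (3.13 ± 0.52), the adhesion receptor ADGRB2 (2.97 ± 0.32), the Wnt pathway transcription factor TCF7 (2.91 ± 0.36), the antisense RNA CSRP3-AS1 (2.90 ± 0.56) and the interferon-induced GTPase GBP5 (2.88 ± 0.66). Other genes of the 12 largest falls were the glutamate receptor subunit GRIK2 (-3.07 ± 0.56), the fragile-site gene FHIT (-3.04 ± 0.57), the adhesion molecule NEGR1 (-2.73 ± 0.43), GGT5 (-2.61 ± 0.31), which cleaves glutathione conjugates, the mitochondrial peptidase IMMP2L (-2.55 ± 0.55), the transcription factor SOX4 (-2.55 ± 0.46) and the heparan sulfate proteoglycan GPC6 (-2.51 ± 0.54). Each value is a log2 fold change with its SE, and each gene passed edgeR's adjusted test without overlap between the groups. Among genes at or under 3 counts in every library of one group, S1PR3, a receptor for sphingosine 1-phosphate, was at least 8.23-fold higher, CA2 at least 7.54-fold and GRAMD2A at least 7.44-fold. CCR1, a chemokine receptor, was at least 6.71-fold lower, TIPARP-AS1 at least 5.04-fold and INHBB at least 3.82-fold. SPHK1, the kinase that makes the ligand of S1PR3, rose from 18.5 and 18.3 CPM to 74.7 and 69.3 CPM (1.97 ± 0.27, edgeR adjusted p = 0.00504). S1PR3 and SPHK1 were the 2 of 11 sphingosine and lysophosphatidic acid genes that rose (18.2%, compared with 3.85% of all genes tested), and 0 fell.

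**Figure D3:**
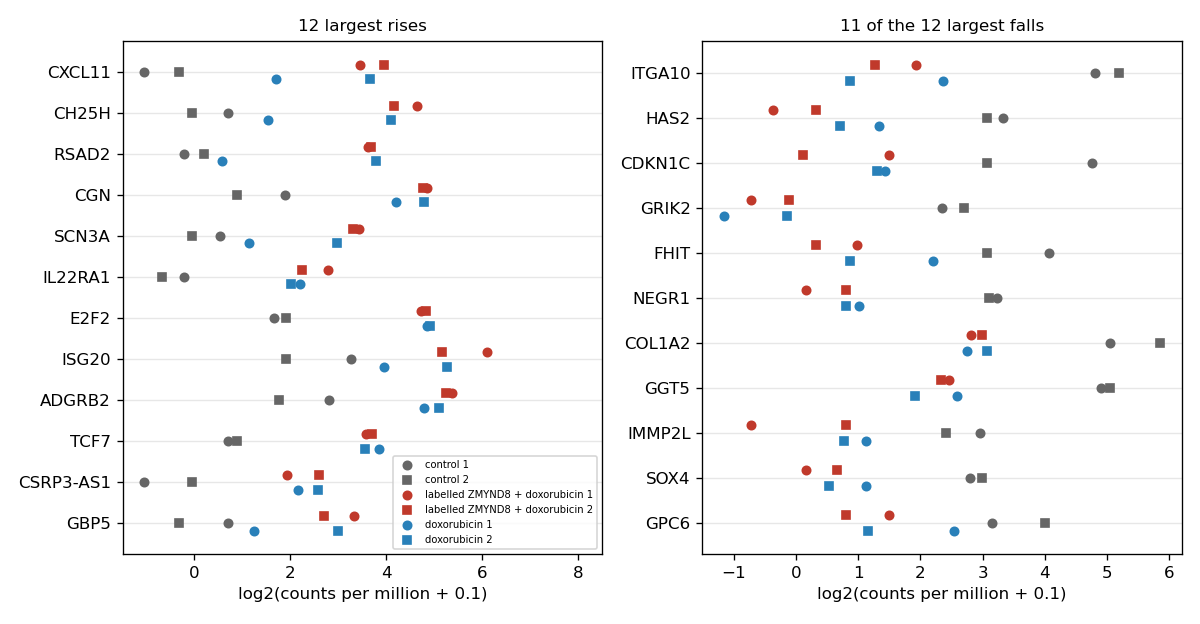
Level of the 12 genes that rose most (left) and 11 of the 12 that fell most (right) in the 6 transient libraries, as log2(CPM + 0.1) on the horizontal axes; circles are replicate 1 and squares replicate 2, grey for control, red for labelled ZMYND8 + doxorubicin and blue for doxorubicin alone. Red and grey points do not overlap in any row, and several rises such as RSAD2 show doxorubicin alone 1 (1.39 CPM) close to control and doxorubicin alone 2 (13.7 CPM) with the red points.

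Other lists had few calls or calls in both directions. Of 20 immediate early genes 2 rose and 5 fell. EGR1, an early growth response factor, was at 6.11 and 1.22 CPM in control and at 35.5 and 9.36 CPM in labelled ZMYND8 + doxorubicin (log2 fold change 2.63 ± 0.69, edgeR adjusted p = 0.0462), and MYC was at 319 and 144 CPM and at 92.8 and 76.8 CPM (-1.45 ± 0.34, edgeR adjusted p = 0.0289). The controls of both genes differed by more than 2 times. Of the cholesterol and fatty acid list 2 of 33 fell and 0 rose, the fatty acid enzymes SCD (-1.31 ± 0.27) and ELOVL6 (-0.96 ± 0.25), with edgeR adjusted p = 0.0196 and 0.0428. Of the drug target and efflux list 1 of 20 rose (TOP2A) and 3 fell, the transporters ABCC4 (-1.01 ± 0.22) and ABCC3 (-0.91 ± 0.20) and the vault protein MVP (-0.93 ± 0.21). Of 55 ribosomal protein genes 2 passed in edgeR, both lower (RPL5 at -0.88 and RPS3A at -0.87). At an unadjusted p of at most 0.05 in edgeR 24 were lower and 0 higher, and DESeq2 called 13 lower and 0 higher. A negative value was found in 53 of 55, and the median was -0.54. That median was -0.20 without control 1, with 35 of 55 negative, and -0.80 without control 2, with 15 called lower. Relative to the mean of both, control 1 stood 0.35 above and control 2 0.35 below in the median ribosomal gene. Of 24 heat shock genes 1 fell (DNAJB6, -0.78 ± 0.20) and 0 rose. The share called lower was thus 6.06% of the cholesterol list, 3.64% of the ribosomal list and 4.17% of the heat shock list, compared with 2.97% of all genes tested. In the drug target and efflux list 5% were called higher and 15% lower, and in the immediate early list 10% and 25%. Over all genes tested 3.85% were called higher. Without labelled ZMYND8 + doxorubicin 1 the calls of all 5 lists were lost.

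Groups that differed between both controls could not be placed. The integrated stress response list, genes of the ATF4 pathway, had a median of -0.76 with 1 of 20 lower, DDIT4 (-2.49 ± 0.54, edgeR adjusted p = 0.0234, with 41.2% of exon bases overlapping antisense exons). Without control 1 the median of that list turned to 0.31. The mitochondrially encoded mRNAs, at a median of -0.40 with 0 of 13 at an unadjusted p of at most 0.05 in edgeR and 0 called by edgeR or DESeq2, turned to 0.38 without control 1. Relative to the mean of both, control 1 stood 0.72 above and control 2 0.72 below on the log2 scale in the median stress gene, and 0.60 above and below in the median mitochondrial mRNA.

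**Figure D4:**
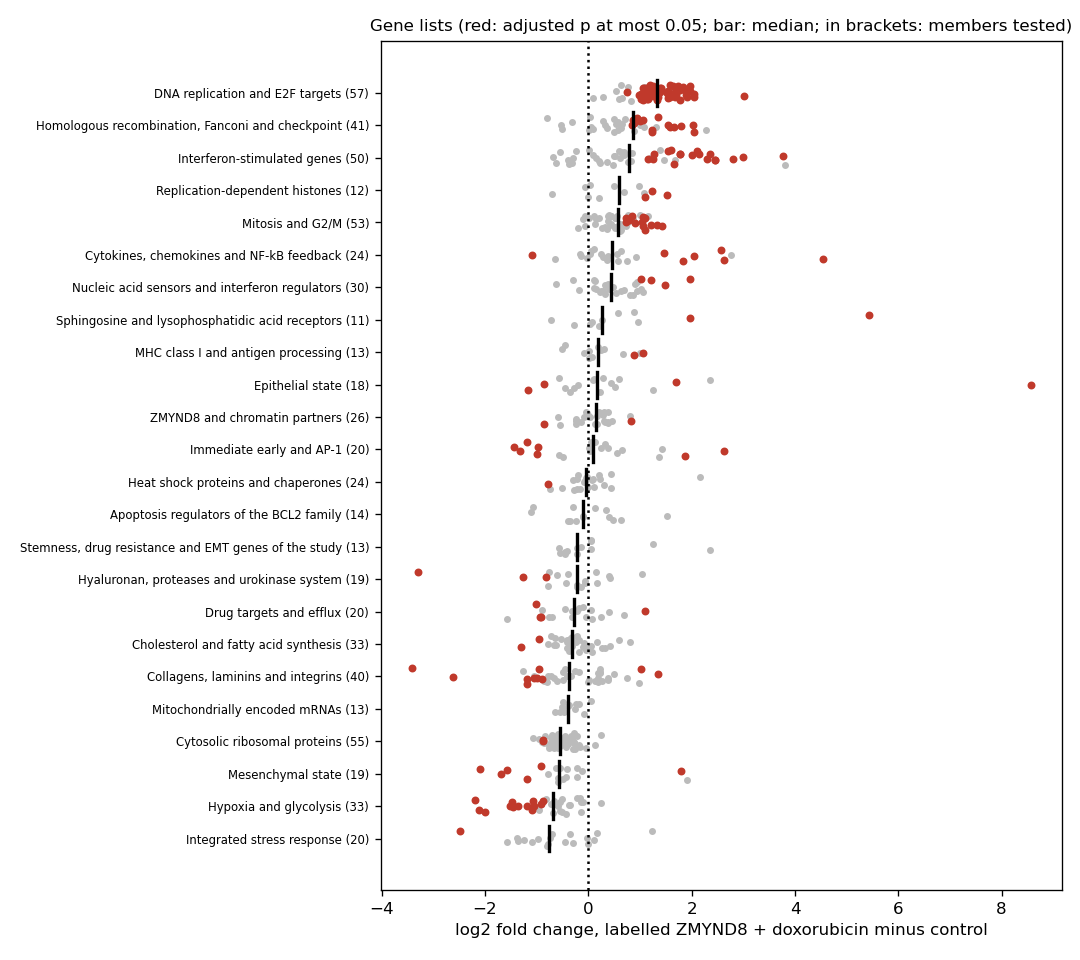
Log2 fold change of labelled ZMYND8 + doxorubicin minus control (horizontal axis) for every tested member of 24 gene lists, each point a gene and each bar the list's median; red points passed an adjusted p of 0.05 and the number of members tested is in brackets. DNA replication (median 1.32) and interferon-stimulated genes (0.79) lie to the right of 0, hypoxia and glycolysis (-0.68) to the left, and the far points KRT17 and S1PR3 have at most 3 counts in each control library, so their fitted positions are not bounds.

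The genes of stemness, drug resistance and epithelial-mesenchymal transition on which the study centres did not pass the test against control. The study reported a fall of genes of these classes with ZMYND8 followed by doxorubicin, and a rise with doxorubicin. Those results came from qRT-PCR, with ChIP at promoters, so that the measure and the contrast differ from those used here. Of 19 in that list, which was taken from the study itself, 13 could be tested and edgeR and DESeq2 called 0, with a median log2 fold change of -0.21. At an unadjusted p of at most 0.05 in edgeR 1 was higher (CDH1) and 1 lower (SOX9, at -0.56). Against doxorubicin alone, a contrast that holds the near-identical libraries, the 13 genes had a median log2 difference of -0.007. The smallest unadjusted p of that contrast among them was 0.0502 in edgeR. The values below are against control. CD44, a receptor for hyaluronan used as a stem cell marker, was at 597 and 504 CPM in control and at 527 and 420.2 CPM in labelled ZMYND8 + doxorubicin (-0.22 ± 0.22, edgeR adjusted p = 0.595). ZEB1, a repressor of epithelial genes, was at 67.7 and 73.4 CPM and at 51.4 and 45.6 CPM (-0.54 ± 0.25, edgeR adjusted p = 0.211). ABCC1, a drug efflux pump, was at 10.7 and 13.7 CPM and at 11 and 6.89 CPM (-0.45 ± 0.33, edgeR adjusted p = 0.434). ZEB1 was lower in both treated libraries than in both controls, while CD44 and ABCC1 overlapped. SNAI2 was at -0.21 ± 0.34, VIM at -0.41 ± 0.26 and EPCAM at -0.44 ± 0.22, and CDH1, E-cadherin, was at 0.954 and 1.22 CPM and at 1.69 and 9.52 CPM (2.35 ± 0.96, edgeR adjusted p = 0.16). Of 26 ZMYND8 partner genes EZH2 rose (0.82 ± 0.20, edgeR adjusted p = 0.0328) and KDM5B fell (-0.86 ± 0.21, edgeR adjusted p = 0.0331), and KDM5C stood at -0.01 ± 0.20. That is 3.85% of the list in each direction, compared with 3.85% higher and 2.97% lower over all genes tested, and both calls were lost without any 1 of the 4 libraries.

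The contrast that holds the drug constant, labelled ZMYND8 + doxorubicin minus doxorubicin alone, called 0 of 15697 genes in edgeR, with 54 (0.344%) at an unadjusted p of at most 0.05 and 0 called by DESeq2 (30 at an unadjusted p of at most 0.05). The replicate 2 libraries of this contrast are the near-identical ones. They bring the means of both groups together, while the spread is still estimated from all 6 libraries. The share of 0.344% lies far below the p limit itself, which is the share that independent libraries without a difference would give. The contrast therefore could not decide whether the groups differ, and 0 calls do not show that they were alike. The 4 genes with the smallest p-values were GSDMD (log2 difference -3.75, edgeR adjusted p = 0.839), CD99 (3.41), BCAT1 (-0.70) and ISG15 (1.25), the last 3 with an edgeR adjusted p of 1. GSDMD, CD99 and ISG15 are among the 45 genes in which the replicate 2 libraries differed, and CD99 has copies on X and Y that can share reads. BCAT1, an aminotransferase of branched-chain amino acids, was at 37.5 and 47.6 CPM in labelled ZMYND8 + doxorubicin, at 83.3 and 55.7 CPM in doxorubicin alone and at 119.6 and 138 CPM in control. ISG15 was at 114 and 324 CPM in doxorubicin alone, below the 688 and 359 CPM of the labelled libraries. E2F2 differed by -0.11, CA9 by -0.15 and ZMYND8 by -0.09 on the log2 scale between both drug-treated groups, each with an edgeR adjusted p of 1. A single value compared between 2 libraries and 2 libraries cannot reach a two-sided exact permutation p below 0.333.

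The inducible system, which shares no library with the transient one, allowed the changes to be set beside cells in which ZMYND8 was raised. There, ZMYND8 with 48 h doxorubicin minus untreated GFP gave 6956 higher (37%) and 6661 lower (35.4%) of 18801 genes tested. Of the 1071 genes called in the transient comparison 1057 were tested in both systems, and 934 of them (88.4%) had the same sign. Of these, 873 were called in the same direction, which is 81.5% of the transient calls and 6.41% of the inducible ones, and 74 were called in opposite directions. Against GFP cells with 48 h doxorubicin minus untreated GFP, a comparison added after the data were seen, 1023 (96.8%) had the same sign, 975 were called in the same direction (91.0% of the transient and 8.07% of the 12077 inducible calls) and 9 in opposite directions. The correlation of the log2 fold changes across these genes was 0.78 (Pearson) and 0.77 (Spearman) for ZMYND8 with doxorubicin and 0.87 and 0.86 for GFP with doxorubicin. Both inducible contrasts share the untreated GFP libraries, and the calls were chosen by size in the transient system, so these values are a description.

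**Figure D5:**
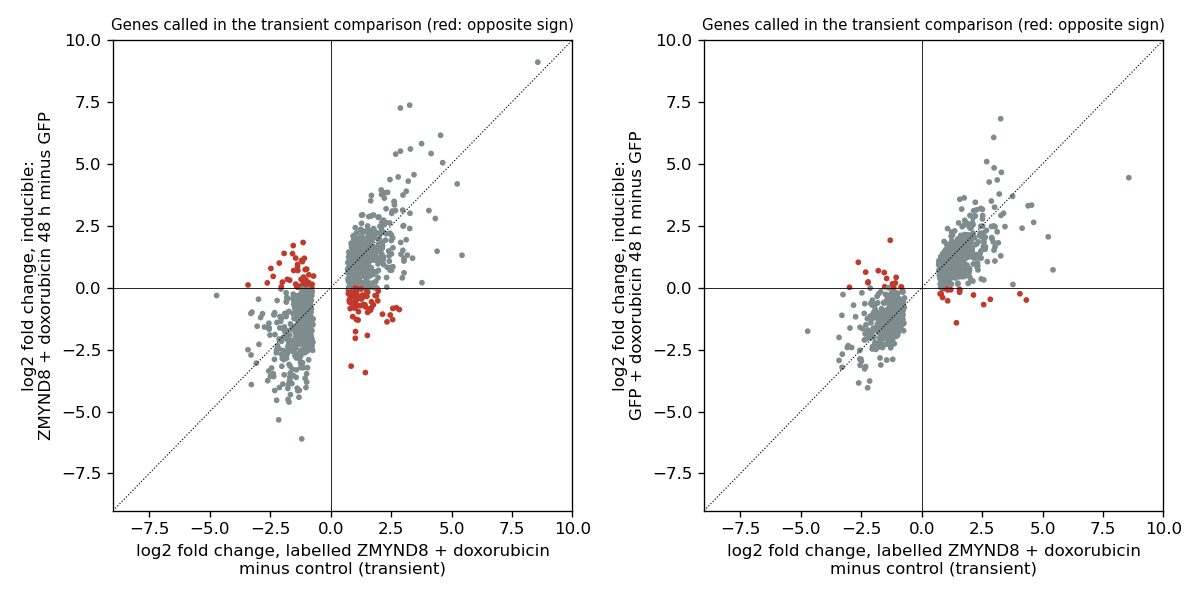
Log2 fold change of the genes called in the transient comparison (horizontal axes) beside that in the inducible system (vertical axes), for ZMYND8 + doxorubicin 48 h minus GFP on the left and GFP + doxorubicin 48 h minus GFP on the right; each point is a gene, the dotted line marks equal values and red marks opposite signs. The same sign was found in 934 of 1057 genes on the left and in 1023 on the right.

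Several genes had values of the same sign in both systems. CXCL11 was at 4.55 in the transient and 6.15 in the inducible ZMYND8 comparison on the log2 scale, E2F2 at 3.02 and 2.51, RRM2 at 2.04 and 1.87 and CA9 at -2.20 and -2.34. The medians of the replication, interferon, hypoxia and cytokine lists in the inducible ZMYND8 comparison were 0.75, 0.53, -1.40 and -1.06. The cytokine median, 0.46 in the transient system, stayed positive there but was 1.19 without control 1 and 0.05 without control 2. The mitochondrial median, 1.42 in the inducible system, was -0.40 in the transient one and 0.38 there without control 1. Since their size or sign in the transient system depended on the control left out, neither median was compared in sign between systems. Genes called in opposite directions included PTK7, an inactive receptor kinase of Wnt signalling, at 166 and 136 CPM in transient control and 308 and 235 CPM in labelled ZMYND8 + doxorubicin. In the inducible system it was at 267 and 265 CPM in GFP cells and 28.1 and 31.2 CPM in ZMYND8 cells with doxorubicin, with -0.03 on the log2 scale in GFP cells with the drug. CSF2 rose by 2.57 in the transient system and stood at -1.29 in the inducible one, and IL4I1, an enzyme that degrades aromatic amino acids, at 2.33 and -1.38. In the other direction NEAT1, the long noncoding RNA of paraspeckles, was at -1.14 and 1.82, RPL22L1 at -2.13 and 1.00 and FOXQ1 at -1.92 and 1.38. A joint fit of both systems, which pools their spread, gave a difference in effect for 5570 of 21573 genes (25.8%). With each system fitted on its own, an alternative chosen after seeing the data, 3636 of 15082 genes differed. The systems also differ in transfection, doxycycline, confluency, depth and strand of counting, which cannot be told apart from the ZMYND8 level.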

How the data were processed

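The series holds 18 mRNA libraries of MDA-MB-231 cells, 2 per condition, grouped by their titles. The authors deposited raw counts per gene, obtained with featureCounts 1.6.4 (named in the file headers) over exons of GENCODE genes with a reverse-stranded setting. The submitters' processing notes name Trim Galore, HISAT2, DESeq2 and hg38, whereas the methods of the study name TopHat and cuffdiff, so the aligner is uncertain. Counts were not normalized before deposition and 0 columns lacked a sample.

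Counts of the 6 transient libraries were filtered by edgeR's expression filter (15697 of 60603 genes kept), normalized by TMM and fitted with 1 mean per group in edgeR 4.0.16 (limma 3.58.1, R 4.3.3) by its quasi-likelihood test. Genes were called at a Benjamini-Hochberg adjusted p of at most 0.05 over all genes tested. The 12 inducible libraries were fitted in the same way (18801 genes) and the difference between systems in a joint fit (21573 genes). DESeq2 1.42.0, other scalings and filters, leave-outs and a replicate block were alternatives. Levels are TMM-normalized CPM, comparable between libraries and not between genes. A lower bound of a fold is the mean CPM of the higher group over that of 3 counts per library. Each SE is the absolute log2 fold change divided by the square root of the F statistic of its test. With 2 libraries per group, the spread behind it was estimated over all libraries of the fit and moderated across genes. It is not the spread of the 2 libraries of a group alone. The counts carry no molecular identifiers.

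Named genes were ZMYND8, the 12 largest rises and falls (called, at or above 1 in average log2 CPM, groups not overlapping, 1 sign in the 4 leave-outs, a symbol, protein coding or lncRNA, at most 10% antisense overlap), at most 4 lower bounds a direction, up to 3 called members per list and direction, the study's genes, the 4 smallest p against doxorubicin alone and up to 5 genes a direction with opposite calls between systems. Of these, 1 of the 12 largest falls and 1 gene list are not reported here. The members and gene lists were chosen with earlier results of these data known. Scripts were tested on simulated counts.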

Additional observations from a re-analysis of the deposited data

Results flagged for a closer look

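The effect of labelled ZMYND8 + doxorubicin against control was compared with that of inducible ZMYND8 + 48 h doxorubicin against untreated GFP in a joint edgeR fit, and 5570 of 21573 genes differed at an adjusted p of 0.05. Of the 118 named genes 57 differed, 35 with a more positive and 22 with a more negative effect in the transient system. Of these 57, 38 had the same sign in both systems and 19 opposite signs, and 43 also differed when each system was fitted on its own. The values below are differences of log2 fold changes, transient minus inducible.

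The genes that were more positive in the transient system in both ways of fitting were MIR3142HG (4.82), S1PR3 (4.15), PTK7 (3.97), CSF2 (3.82), IL4I1 (3.67), RHOV (3.53), SCD (3.07), ADGRB2 (2.54), ST14 (2.46), ELOVL6 (2.23), CGN (2.16), ITGB3 (1.98), ALDOC (1.87), EPCAM (1.82), HLA-C (1.53), TCF7 (1.52), CSF1 (1.48), LOX (1.44), IRF1 (1.19), GGT5 (1.10), CD44 (0.99), CDKN1A (0.92), CCNG1 (0.92), BCAT1 (0.91), COL7A1 (0.91), SPHK1 (0.85), MVP (0.84), NCAPH (0.73) and ESPL1 (0.62). MIR3142HG hosts a microRNA, PTK7 is a receptor kinase of Wnt signalling, CSF2 and CSF1 are growth factors of myeloid cells, and SCD and ELOVL6 make fatty acids.

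Those that were more negative in both ways of fitting were PHLDA1 (-1.14), SNAI2 (-1.28), MYC (-1.62), AEN (-1.69), HAS2 (-2.30), ZMYND8 (-2.80), KRT81 (-2.98), NEAT1 (-3.00), RPL22L1 (-3.16), FGF14 (-3.29), FOXQ1 (-3.35), INHBB (-3.61), GBP5 (-4.40) and TIPARP-AS1 (-4.52). The list includes ZMYND8 itself, the hyaluronan synthase HAS2 and the interferon-induced GTPase GBP5.

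A further 14 genes differed in the joint fit and lost the call when each system was fitted on its own. They were ALDH1A3 (1.21), ZEB1 (0.61), FN1 (0.58), TIMP3 (0.57), PSME2 (0.57), AURKB (0.42), DUSP4 (-0.43), KDM5B (-0.45), RPS3A (-0.47), DNAJB6 (-0.51), EZH2 (-0.54), TNFRSF10D (-0.70), TAGLN (-0.98) and H2BC11 (-0.999). The systems differ in vector, doxycycline, confluency, depth and strand of counting, which cannot be told apart from the difference in ZMYND8.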

How the results depend on the processing

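Against control, the 1071 calls became 1235 with scaling by total counts (929 shared), of which 73.8% were higher compared with 56.5% under TMM, and that scaling raised the median of all genes by 0.14 on the log2 scale. They became 1774 with no filter on low counts, 2795 with the replicate number as a block, 605 with both near-identical libraries left out (a fit with 2 libraries fewer), and 152 (without labelled ZMYND8 + doxorubicin 1) to 788 with 1 library left out. RLE factors (1064), DESeq2 (1446), a minimum of 10 counts (1039), the study's criterion (1544), an added fold limit (821), a fit of the 4 libraries (966) and the loss of genes with antisense overlap (898) stayed within 1.5 times. The fit with no filter tested 37454 genes, that with a minimum of 10 counts 13800 and that without antisense overlap 12112, in place of 15697.

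Against doxorubicin alone, 0 calls became 17 with no filter, 25 under the study's criterion and 1 to 3 with 1 library left out, and 0 under RLE, total counts, DESeq2 and the replicate block. In the inducible comparison the 13617 calls became 6494 when a log2 fold change of at least 1 was also required, 13908 with total counts (62.9% higher compared with 51.1%), and 12648 to 12893 with 1 library left out. The 5570 genes that differed between systems became 3636 with each system fitted on its own, an alternative chosen after seeing the data, 6941 with the replicate block, and 4597 to 6208 with 1 library left out. The joint fit tested 21573 genes and the fit of each system on its own 15082. Of the 5570 genes, 5209 were tested in the latter and 3627 were called again with the same sign. The cause of these shifts was not tested.

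By the labels replicates share only a number, and each pair of groups has 2 same-numbered pairs of libraries. The deviations of same-numbered libraries from their group means correlated at 0.34 (control and labelled ZMYND8 + doxorubicin), 0.21 (control and doxorubicin alone) and 0.40 (labelled ZMYND8 + doxorubicin and doxorubicin alone) over 15697 genes, and the last pair holds the near-identical libraries. With the replicate block 25 of 55 ribosomal protein genes were lower in place of 2.

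Of the 118 named genes 103 were called and all 923 alternative values of these kept their sign, which is nearly fixed where the groups do not overlap. Calls were lost in 72 named genes without labelled ZMYND8 + doxorubicin 1, in 52 without labelled ZMYND8 + doxorubicin 2, in 31 and 34 without either control and in 33 without both near-identical libraries, and 25 were called in every alternative. In a leave-out the lone library of a group is assumed to vary like the other groups. Depth limits genes near 3 counts, which is 0.492 to 0.572 CPM in the 4 libraries.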

Other observations

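Genes of long genomic span were called lower in larger share than shorter ones in labelled ZMYND8 + doxorubicin, a pattern looked at after GRIK2 (889 kb), FHIT (1504 kb), NEGR1 (887 kb), IMMP2L (899 kb) and GPC6 (1181 kb) had been found among the 12 largest falls. The genomic span of a gene, from the first to the last annotated exon base, had a median of 51.2 kb in the 466 genes called lower, 23.9 kb in the 605 called higher and 25.8 kb in all genes tested. Of 148 genes over 500 kb, 29 were lower (19.6%) and 0 higher, with a median log2 fold change of -0.50. Of 808 genes of 200 to 500 kb, 61 were lower (7.55%) and 10 higher (1.24%), with a median of -0.24. In the 6243 genes of 10 to 50 kb, 129 were lower (2.07%) and 318 higher (5.09%), with a median of 0.07. The 4060 genes of 50 to 200 kb had a median of -0.05 and the 4438 genes under 10 kb of 0.003.

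In the other contrasts with doxorubicin genes over 500 kb also had the lowest median of these 5 span classes. For genes over 500 kb the median log2 fold change was -0.40 in doxorubicin alone against the same control libraries, -1.01 in inducible ZMYND8 with 48 h doxorubicin and -0.90 in GFP cells with 48 h doxorubicin, both against untreated GFP. These values are descriptions, and span was not tested as a cause. The pattern was not general to the largest falls, since ITGA10 (18.9 kb), HAS2 (29.3 kb) and CDKN1C (2.56 kb) are short.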
